A study of Mus musculus with 5 samples.

Results

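Glutathione is a small thiol peptide that cells use to remove peroxides and reactive, electron-poor chemicals. It is built from glutamate, cysteine and glycine by glutamate-cysteine ligase and then glutathione synthetase. Glutathione transferases join it to such chemicals, glutathione peroxidases oxidise it while they reduce peroxides, and glutathione reductase restores the reduced form. In many cells the transcription factor NRF2, which binds the antioxidant response element, raises several of these genes under oxidative or electrophilic stress, and microglia, the resident macrophages of the brain, make much of their own oxidant.

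The 10 genes described here were taken by their symbols, out of 40879 symbols listed in every library. They were chosen with earlier results of these data known. They are 5 transferases (Gsta3, Gstm1, Gstp1, Gsto1 and the membrane-bound Mgst1), 3 genes of synthesis (Gclc, Gclm and Gss), glutathione reductase (Gsr) and the peroxidase Gpx1. Transcripts were measured by 3′-end sequencing of total RNA from BV-2, an immortalised mouse microglial line, with 1 library in each of 5 groups. The control received neither agent according to its label, and no vehicle is mentioned for it. The UPM group was exposed to urban particulate matter at 50 µg/mL for 23 h. The other groups had the same exposure after 1 h with the antidepressant trazodone (TZ), given at 1.25, 2.5 or 5 µg/mL, and are called TZ 1.25, TZ 2.5 and TZ 5. No library had TZ without UPM.

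Library totals ran from 6829720 to 7696168 counts. All 13 microglial markers had counts in each library, with a summed level of 3961 to 4275 CPM (defined next), while the summed levels of astrocyte, neuron, oligodendrocyte, endothelial, fibroblast and T cell markers ranged from 0.133 to 16.9 CPM. The astrocyte marker Aqp4, the oligodendrocyte markers Mog and Mobp, and the T cell markers Cd3e and Cd3g were at 0 in all 5. Of the microglial markers, P2ry12 had 5 to 11 counts and Tmem119 had 23 to 57, both markers of resting microglia in the brain. Most of the endothelial sum was Kdr, at 12.6 to 14.9 CPM. CPM is the count divided by the library total and its TMM scaling factor, times 1000000. In bulk RNA, fewer cells carrying a transcript and less of it per cell cannot be told apart.

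RefSeq promoters of build GRCm38.p6 were at hand for 8 of the 10 genes (all but Gclc and Gsr), as 10 windows of 300 bases (250 before to 50 after the start site). They were searched on both strands for TGACNNNGC, the core of the antioxidant response element, and for TNGCGTG, the core of the element bound by the aryl hydrocarbon receptor, the sensor of combustion hydrocarbons. The first core was present in 3 of the 8 genes, Gsta3, Mgst1 and Gclm, and in 14.0% of all 27025 genes. By window it was in 3 of 10, and in 12.4% of all 32851 promoters of that length. The second was in 0 of the 10 windows and in 5.07% of all promoters. Neither core overlapped the other in these windows, since the second was not found.

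The 250 bases before the start site are shown for the 3 genes with the antioxidant core, and the capitals mark the core. The control had the lowest level in all 3. It was also lowest in Gstm1 and Gsto1, whose windows held no core, and in Gsr, which had no window. For Gsta3 this is the + strand at chr1:21240335-21240584, with the core beginning 121 bases before the start and reading TGACATTGC. For Mgst1 it is the first of 2 start sites, + strand, chr6:138140277-138140526, and for Gclm the + strand at chr3:122245307-122245556. In Mgst1 and Gclm the core lies on the opposite strand, 56 and 134 bases before the start, so the capitals show its reverse complement.
Gsta3: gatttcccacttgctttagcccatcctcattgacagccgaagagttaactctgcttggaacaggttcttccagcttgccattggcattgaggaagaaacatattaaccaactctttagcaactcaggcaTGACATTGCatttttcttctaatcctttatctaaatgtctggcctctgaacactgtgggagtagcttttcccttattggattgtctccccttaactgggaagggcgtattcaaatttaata
Mgst1: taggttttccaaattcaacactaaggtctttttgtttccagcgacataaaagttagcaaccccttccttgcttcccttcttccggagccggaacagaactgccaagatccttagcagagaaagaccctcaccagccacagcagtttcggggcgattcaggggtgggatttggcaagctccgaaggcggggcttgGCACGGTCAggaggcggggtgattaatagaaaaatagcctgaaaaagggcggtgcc
Gclm: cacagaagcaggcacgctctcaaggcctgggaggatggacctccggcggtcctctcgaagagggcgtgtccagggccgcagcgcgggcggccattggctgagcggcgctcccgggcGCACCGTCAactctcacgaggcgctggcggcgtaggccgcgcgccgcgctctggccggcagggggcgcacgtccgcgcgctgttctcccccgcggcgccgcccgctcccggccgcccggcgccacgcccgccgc
The windows of Gstm1 (2 start sites), Gstp1, Gsto1, Gss and Gpx1 and the second start site of Mgst1 held neither set of letters. A match describes the letters only, and binding was not measured.

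Among the transferases, Gsta3, an alpha-class enzyme that conjugates electrophiles and lipid peroxidation products, differed most between libraries. Its level was 5.59 CPM in the control (42 counts, 95% exact Poisson interval 4.03 to 7.56), 21.0 with UPM alone (161 counts, 17.9 to 24.6), 27.7 at TZ 1.25, 25.5 at TZ 2.5 and 33.8 at TZ 5 (233 counts, 29.6 to 38.4). The control stood below all 4 UPM-exposed libraries, and its interval met none of theirs. Each TZ library lay above the library with UPM alone. UPM was 3.76-fold the control (2.67 to 5.42) and TZ 5 was 6.04-fold the control (4.34 to 8.61). From the bottom upward, TZ 2.5 did not differ from UPM beyond counting error (1.21-fold, 0.975 to 1.51), nor TZ 1.25 from TZ 2.5 (1.08-fold, 0.882 to 1.34), and TZ 5 was 1.22-fold TZ 1.25 (1.00 to 1.48). Between libraries that are not neighbours, TZ 1.25 was 1.32-fold UPM (1.07 to 1.63).

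The reads carry no molecular identifiers, so repeated copies of a molecule may have been counted and all intervals may be too narrow. The intervals cover at most counting error, since no group has a replicate. A ratio of 2 libraries therefore compares those libraries and not the treatments. A gene counts as measured in a pair of libraries at a mean of at least 10 CPM. It was called higher or lower when, in addition, the levels differed at least 1.5-fold and the 95% exact interval of the fold left out 1.

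Gstm1, a mu-class transferase, was 30.1 CPM in the control (226 counts), 53.2 with UPM alone (407), 44.3 at TZ 1.25 (320), 55.7 at TZ 2.5 (386) and 58.9 at TZ 5 (406). The control was again lowest, and TZ 1.25 lay between it and the remaining libraries. TZ 1.25 was 1.47-fold the control (1.24 to 1.76), and UPM was 1.20-fold TZ 1.25 (1.03 to 1.39). UPM, TZ 2.5 and TZ 5 did not differ beyond counting error. Of the 75-base windows in the last 400 bases of annotated Gstm1 transcripts, 18.2% also occur in Gstm3 or in pseudogenes, so part of its reads could have been split or lost in counting.

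Mgst1, a microsomal enzyme with both transferase and peroxidase activity, stood at 14.8 CPM in the control (111 counts), 23.4 with UPM alone (179), 25.8 at TZ 1.25 (186), 27.4 at TZ 2.5 (190) and 29.6 at TZ 5 (204). The control was lowest, and the 4 UPM-exposed libraries followed in the order of TZ dose with no neighbouring pair of them apart beyond counting error. The step from control to UPM was 1.58-fold (1.24 to 2.02), and TZ 5 stood at 1.26 times UPM (1.03 to 1.55).

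Gsto1, an omega-class transferase with glutaredoxin-like activity, had the narrowest relative span of the transferases. Its level was 181 CPM in the control, 191 with UPM alone, 192 at TZ 1.25, 208 at TZ 2.5 and 203 at TZ 5, on 1362 to 1464 counts. The control was the lowest, yet no library differed from its neighbour in order beyond counting error, and UPM was 1.06-fold the control (0.980 to 1.14). Across the whole order, TZ 2.5 was 1.14-fold the control (1.06 to 1.23).

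Gstp1, the pi-class transferase, was close to undetected, with 2 counts in the control, 1 with UPM alone, 4 at TZ 1.25, 5 at TZ 2.5 and 3 at TZ 5 (0.131 to 0.722 CPM). A count of 0 allows up to 3 counts, 0.392 to 0.435 CPM depending on the library, so no fold is given. Of the windows at its transcripts' ends, 72.2% also occur in Gstp2 or the pseudogene Gstp-ps. Reads that match several copies may not have been assigned to any of them, so the low count does not show a low level of the transcript.

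The 3 genes of synthesis differed in the order of their libraries. Gclm, the modifier subunit that raises the activity of glutamate-cysteine ligase, was 62.2 CPM in the control (467 counts), 92.4 with UPM alone (707), 96.5 at TZ 1.25 (696), 102 at TZ 2.5 (704) and 85.4 at TZ 5 (589). The control was lowest, with TZ 5, next in order, at 1.37 times its level (1.22 to 1.56). UPM was 1.49-fold the control (1.32 to 1.67), just under the 1.5-fold limit. The 4 UPM-exposed libraries did not differ from their neighbours in order beyond counting error. From end to end they did, since the interval at TZ 2.5 (94.3 to 109 CPM) did not meet that at TZ 5 (78.7 to 92.6).

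Gclc, the catalytic subunit of the same enzyme, was 124 CPM in the control (933 counts), 143 with UPM alone (1095), 134 at TZ 1.25 (968), 124 at TZ 2.5 (860) and 118 at TZ 5 (813). It was highest with UPM alone, and TZ 2.5 and TZ 5 lay at or below the control. Neighbours in its order did not differ beyond counting error. UPM was 1.15-fold the control (1.05 to 1.26) and TZ 5 was 0.824-fold UPM (0.752 to 0.903). Within a library, where no scaling enters, Gclm had 0.501 counts per Gclc count in the control (0.447 to 0.560). That ratio was 0.646 with UPM alone (0.587 to 0.710), 0.719 at TZ 1.25, 0.819 at TZ 2.5 (0.740 to 0.905) and 0.724 at TZ 5. The control thus had the lowest share of modifier to catalytic subunit transcripts, with an interval apart from the other 4.

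Gss, glutathione synthetase, which adds glycine in the last step, was highest in the control, at 11.8 CPM (89 counts), against 6.01 with UPM alone (46), 8.87 at TZ 1.25 (64), 7.94 at TZ 2.5 (55) and 7.98 at TZ 5 (55). UPM was lowest, with a ratio to the control of 0.507 (0.348 to 0.732). The mean of that pair, 8.93 CPM, is under the minimum of 10, so Gss was not called. With a minimum of 1 CPM it would be called lower, as were 3.46% of all genes at that minimum. No neighbours in its order differed beyond counting error.

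Gsr, the reductase that returns oxidised glutathione to its reduced form with NADPH, was 48.9 CPM in the control, 51.1 with UPM alone, 59.7 at TZ 1.25, 65.1 at TZ 2.5 and 62.9 at TZ 5, on 367 to 451 counts. The control and UPM did not differ beyond counting error (1.05-fold, 0.905 to 1.21), and the 3 TZ libraries were higher. TZ 1.25 was 1.17-fold UPM (1.02 to 1.34), TZ 2.5 was 1.27-fold (1.11 to 1.46) and TZ 5 was 1.23-fold (1.07 to 1.42), all under the 1.5-fold limit.

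Gpx1, the cytosolic selenium-containing peroxidase, was 696 CPM in the control (5226 counts), 798 with UPM alone (6105), 771 at TZ 1.25 (5562), 708 at TZ 2.5 (4904) and 692 at TZ 5 (4768). It was highest with UPM alone, which did not differ from TZ 1.25 beyond counting error (1.04-fold, 0.998 to 1.07). TZ 1.25 was 1.09-fold TZ 2.5 (1.05 to 1.13), and TZ 5 did not differ from the control beyond counting error (0.994-fold, 0.956 to 1.03). UPM was 1.15-fold the control (1.11 to 1.19) and TZ 5 was 0.867-fold UPM (0.834 to 0.900). Its profile was nearly that of Gclc. The distance between the log2 profiles, each centred over the 5 libraries, was 0.06 for this pair, the smallest among the 8 genes with a mean of at least 10 CPM, and next came Gsto1 with Gsr at 0.24.

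**Figure D1:**
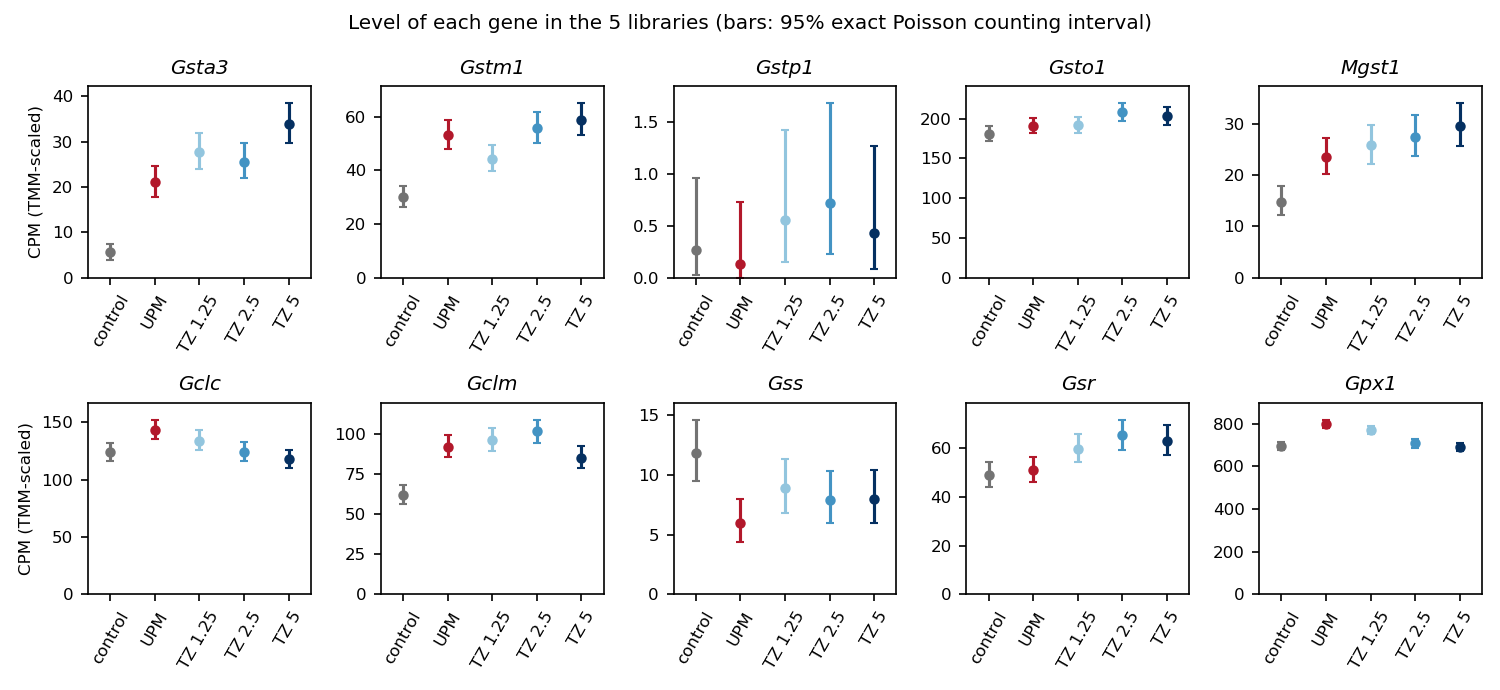
TMM-scaled CPM of each of the 10 genes (vertical axes from 0, each with its own scale) in the 5 libraries (horizontal axes). Points are single libraries and bars 95% exact Poisson intervals; Gsta3 is at 5.59 CPM in the control and 21.0 to 33.8 CPM in the others, while Gclc and Gpx1 are highest in UPM.

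In UPM against control, which addresses the response to the particles, 8 of the 10 genes were measured. Gsta3, Gstm1 and Mgst1 were called higher and 0 were called lower, where 1.67% of 8282 measured genes were called higher and 1.41% lower. The genes under the minimum were Gstp1 and Gss, the latter at a ratio of 0.507. All 8 folds of the measured genes were above 1, and their median log2 fold was 0.39 against 0.00 over all measured genes. All 3 called genes were transferases.

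The TZ libraries were compared with UPM alone, which addresses what TZ adds. At TZ 1.25, 0 of 8 measured genes were called (background 1.19% higher and 1.03% lower), with a median log2 fold of 0.03. At TZ 2.5, 0 of 8 were called (2.67% and 1.73%), with a median of 0.13. At TZ 5, Gsta3 was called higher at 1.61-fold (1.31 to 1.98) and no gene lower, with 3.78% and 2.80% of all measured genes called, and the median was 0.12. These 3 comparisons share the UPM library. Each median over all measured genes was between -0.01 and 0.00.

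**Figure D2:**
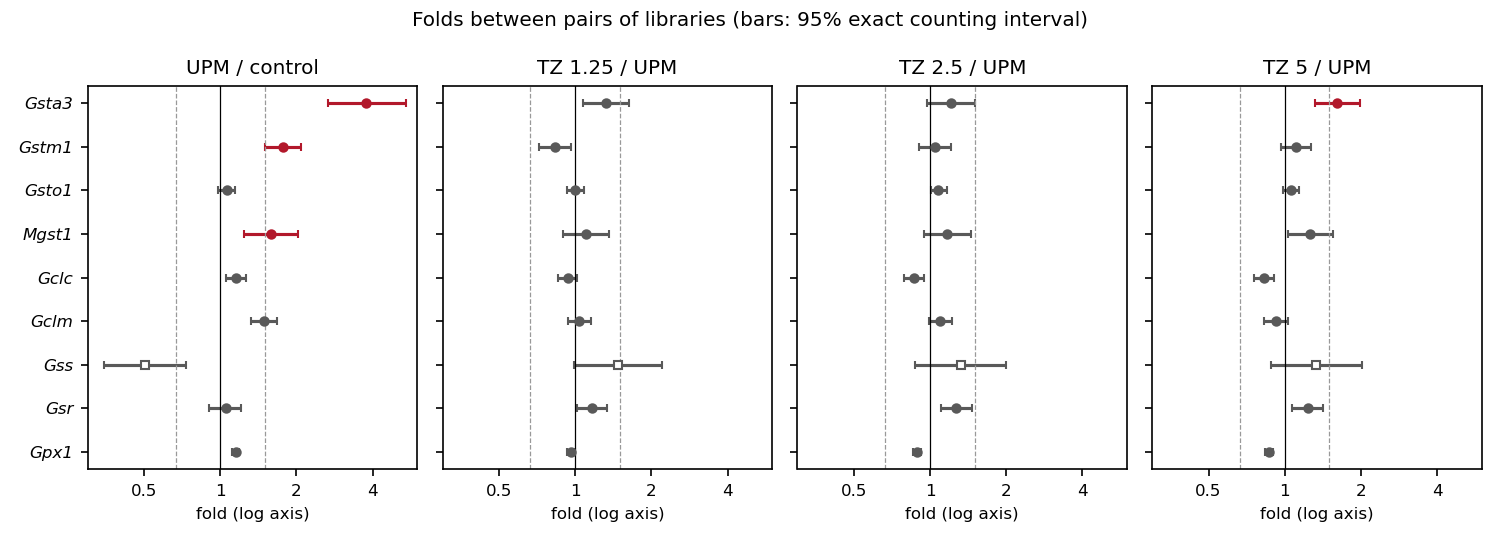
Fold of each gene (log axis) in the 4 comparisons, with 95% exact counting intervals, for the 9 genes other than Gstp1. Red marks genes called higher, open squares a mean under 10 CPM, and dashed lines the 1.5-fold limits; Gsta3 at 3.76-fold and 1.61-fold is red in the first and last panels.

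The TZ libraries were also set against the control, which these comparisons share. In TZ 1.25, Gsta3 (4.96-fold, 3.54 to 7.09), Mgst1 (1.74-fold) and Gclm (1.55-fold) were called higher of 9 measured genes, beside 1.56% of all measured genes higher and 0.821% lower. In TZ 2.5, Gsta3 (4.57-fold), Mgst1 (1.86-fold), Gstm1 (1.85-fold) and Gclm (1.63-fold) were called higher of 8, beside 2.21% higher and 1.41% lower. In TZ 5, Gsta3 (6.04-fold), Mgst1 (29.6 against 14.8 CPM) and Gstm1 (1.96-fold) were called higher of 8, beside 3.55% higher and 2.51% lower. No gene of the 10 was called lower in any of the 3.

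A count that makes no assumption on dose uses all 5 libraries. The control lay below all 4 UPM-exposed libraries in 6 of the 8 genes with a mean of at least 10 CPM over the 5 libraries (Gsta3, Gstm1, Gsto1, Mgst1, Gclm and Gsr), against 20.0% of 8341 genes. It lay above all 4 in 0 of the 8, against 21.8%. The exceptions were Gclc, for which TZ 2.5 and TZ 5 lay below the control, and Gpx1, for which TZ 5 did. In both, the control did not differ from its neighbours in order beyond counting error. Gss, under the minimum at a mean of 8.53 CPM, was highest in the control. This count rests on a single control library, and for Gsto1 and Gsr the control did not differ from UPM beyond counting error. Since the 10 genes were chosen with earlier results of these data known, the shares over all genes are a background and not a test.

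The fit over all 5 libraries used edgeR's quasi-likelihood test, with Benjamini-Hochberg adjustment over 12381 genes and a limit of 0.05. It had a term for UPM and a linear term for TZ dose. Gsta3 rose with the UPM term by a log2 estimate of 1.99 (SE 0.26, adjusted p = 9.36e-06). Gclm rose by 0.65 (SE 0.14, adjusted p = 0.0314). Gstp1 was left out by the filter on low counts, so these were 2 of 9 genes tested, and 0 fell, while 0.0808% of all genes rose and 0.0323% fell. The residual spread rests on 2 degrees of freedom from the 4 UPM-exposed libraries beside spread shared across genes, and the single control library is taken to vary as they do. Gclm missed the limit without TZ 2.5 (adjusted p = 0.0725) by the DESeq2 Wald test (0.241), with total counts for scaling (0.0747) and with no dose term (0.696), and over 10 alternatives its adjusted p ran from 0.00372 to 0.696.

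Gstm1 had a UPM estimate of 0.71 (SE 0.17) that missed the limit with edgeR's test (adjusted p = 0.0704), and passed it without TZ 1.25 (0.00625) or without TZ 5 (0.0128) and with no filter on low counts (0.0260), in a range from 0.00625 to 1.000. The Mgst1 estimate was 0.70 (SE 0.21, adjusted p = 0.319) and that of Gss was -0.73 (SE 0.33, adjusted p = 0.599). Those of Gsto1, Gclc, Gsr and Gpx1 lay between 0.09 and 0.19, with edgeR adjusted p from 0.673 to 0.893. At an unadjusted p under 0.05, 5 of the 9 genes stood out, 4 with positive estimates and Gss with a negative one, beside 4.26% of all genes up and 3.53% down.

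The dose term called 0 of the 9 genes by edgeR, while 2.95% of all 12381 genes rose and 2.50% fell. DESeq2 called 0 of the 6 to which it gave an adjusted p, and gave none to Gsta3, Mgst1 and Gss. In edgeR, 3 of the 9 had an unadjusted p under 0.05, 1 with a positive and 2 with negative estimates, beside 9.15% of all genes up and 8.42% down. DESeq2 gave 1 of the 9 such a p, beside 9.08% of all genes. Gsta3 had a log2 estimate of 0.119 per µg/mL (SE 0.043, adjusted p = 0.0989). Gclc had -0.056 (SE 0.025, adjusted p = 0.218) and Gpx1 -0.043 (SE 0.021, adjusted p = 0.272). The estimates of Gstm1, Gsto1, Mgst1, Gss and Gsr were between 0.020 and 0.065, and that of Gclm was -0.024. None of these passed, so a dose trend was not shown for any of the 9 genes at this depth and number of libraries.

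**Figure D3:**
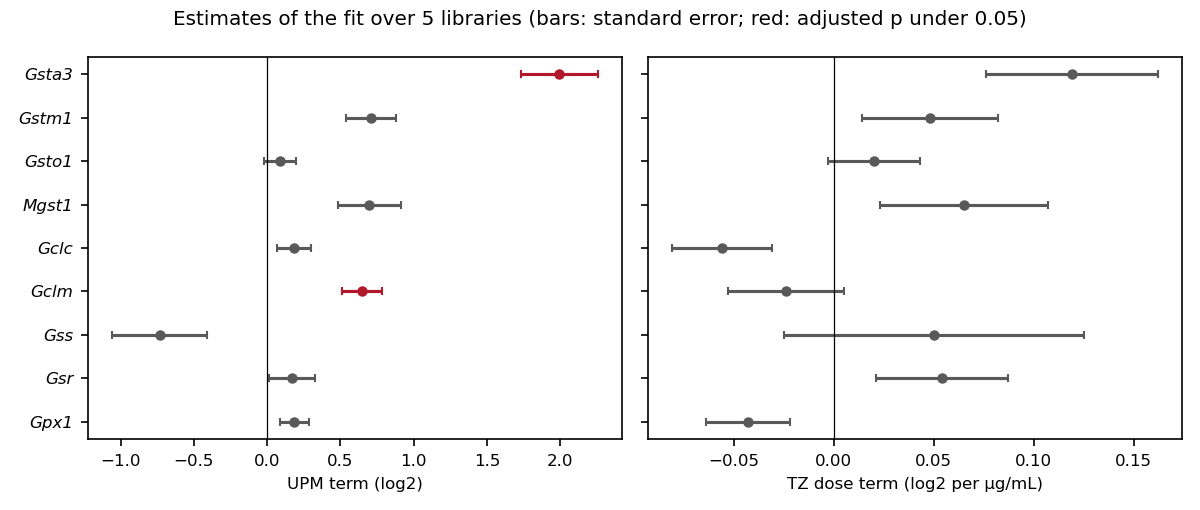
Estimates of the edgeR fit for the UPM term (left, log2) and the TZ dose term (right, log2 per µg/mL) for the 9 genes tested, with bars of 1 standard error. Red marks an adjusted p under 0.05, reached by Gsta3 (1.99) and Gclm (0.65) for the UPM term and by no gene for dose.

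The profiles nearest to those of the 4 genes that passed a term or were called under UPM were sought among 8333 other genes, by the same distance over the 5 libraries. For Gsta3 the nearest was Mgst2, another membrane-bound glutathione transferase, at a distance of 0.81. Mgst2 was 4.66 CPM in the control, 9.93 with UPM alone, 13.6 at TZ 1.25, 12.8 at TZ 2.5 and 13.2 at TZ 5. The next were Tln2, Adap2, Pag1 and Serpinb9b at 1.24 to 1.25, and no other gene compared lay nearer. The nearest genes were Zkscan17, Adgre5, Gm35195, Dnajc19 and Ptgs1 for Gstm1 (0.10 to 0.18), Mis18a, Haus1, 0610009B22Rik, Hpse and Gng4 for Mgst1 (0.05 to 0.20), and Bphl, Mrpl22, Esyt1, Ddx20 and St6gal1 for Gclm (0.08 to 0.13).

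Among the other glutathione transferases and related membrane enzymes, 8 of 25 had a mean of at least 10 CPM over the 5 libraries. The control was lowest in 4 of these, Gstm2, Mgst2, Hpgds (a prostaglandin D synthase of the sigma class) and Alox5ap, the protein that hands arachidonic acid to 5-lipoxygenase. Over all measured genes it was lowest in 20.0%. Gstm2 was called higher in UPM (25.7 against 15.6 CPM, 1.65-fold, 1.31 to 2.10) and Alox5ap stood at 328 against 264 CPM (1.24-fold, 1.17 to 1.32). Among the 6 genes of the list with a mean of at least 10 CPM in this pair, the lowest folds were those of Gstz1 at 0.947 (0.689 to 1.30) and Hpgds at 1.01 (0.922 to 1.10). Below that mean, Mgst2 stood at 2.13 (1.41 to 3.28), Gstm5 at 0.458 (0.298 to 0.693) and Gstt2 at 0.524 (0.267 to 0.992).

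Of 14 genes in that list tested by edgeR, 0 passed the UPM term. At an unadjusted p under 0.05 there were 3 up and 1 down, beside 4.26% and 3.53% of all genes. Gstm5 rose with dose (log2 0.248 per µg/mL, SE 0.078, adjusted p = 0.0490 by edgeR), as did 2.95% of all genes. Gstm5 was 9.98 CPM in the control, 4.57 with UPM alone, 4.43 at TZ 1.25, 6.21 at TZ 2.5 and 10.0 at TZ 5, so TZ 5 stood next to the control. Gstt3 was called higher in TZ 1.25, at 13.9 against 8.49 CPM in UPM (1.63-fold, 1.18 to 2.27).

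Of 5 other enzymes that use glutathione to clear reactive products, all measured, the control was lowest in 4, beside 20.0% of all measured genes. These were the glyoxalases Glo1 and Hagh, Esd and Lancl1, and not Adh5. Esd, an esterase that releases formate from glutathione, rose with the UPM term (log2 0.57, SE 0.11, adjusted p = 0.00801 by edgeR), from 184 CPM in the control to 252 to 280.2 in the 4 UPM-exposed libraries. In UPM against control, Hagh and Esd were called higher, beside 1.67% of all measured genes. Hagh, which frees lactate from glutathione, stood at 1.60-fold (1.31 to 1.96), with an edgeR adjusted p of 0.489, and Esd at 1.53-fold (1.42 to 1.63).

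Of 7 other peroxidases and glutaredoxins, the control was lowest in 2, Gpx4 and Txndc12, and highest in 1, Glrx3. Over all measured genes these shares were 20.0% and 21.8%. Gpx4, which reduces lipid peroxides in membranes, had the highest UPM fold of that list at 1.29 (1.06 to 1.56), and Glrx5 the lowest at 0.826 (0.774 to 0.882). Glrx, a cytosolic enzyme that removes glutathione from protein thiols, fell with dose (log2 -0.122 per µg/mL, SE 0.034, adjusted p = 0.0220 by edgeR). It was 61.9 CPM in UPM, 53.6 at TZ 1.25, 43.2 at TZ 2.5 and 41.0 at TZ 5, and was called lower at TZ 5 (0.663-fold, 0.570 to 0.769). Glrx5, a mitochondrial iron-sulphur cluster carrier, rose with dose by 0.099 (SE 0.024, adjusted p = 0.00654 by edgeR).

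In the supply of cysteine and glutamate the control was lowest in 1 of 7 genes, beside 20.0% of all measured genes. That gene was Slc7a11, the cystine importer. Slc7a11 was 11.4 CPM in the control, 15.0 with UPM alone, 18.7 at TZ 1.25, 18.5 at TZ 2.5 and 22.2 at TZ 5. It was called higher than the control in all 3 TZ libraries, at 1.63-fold, 1.61-fold and 1.94-fold (1.48 to 2.55), and not in UPM (1.31-fold, 0.984 to 1.76). The 3 comparisons share the single control library, and 1.56%, 2.21% and 3.55% of all measured genes were called higher in them. Other listed genes were called there too, among them Cat, higher in all 3, and Chac1, lower at TZ 2.5. Slc7a11 was not called against UPM in any TZ library. It passed neither term of the edgeR fit (adjusted p = 0.673 for UPM and 0.283 for dose). Slc3a2, its partner chain and that of other amino acid transporters, fell with dose (log2 -0.073 per µg/mL, SE 0.023, adjusted p = 0.0438 by edgeR).

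Among genes of glutathione breakdown and export, the control was lowest in 2 of 10 (Cndp2 and Abcc5) and highest in 2 (Chac1 and Slc25a39). These counts are near the shares over all measured genes, 20.0% and 21.8%. Slc25a40, a mitochondrial carrier related to the glutathione importer Slc25a39, was called higher than UPM at TZ 2.5 (1.63-fold, 1.16 to 2.29) and TZ 5 (1.87-fold, 1.35 to 2.62). Chac1, which cleaves glutathione, was called lower at TZ 2.5 (0.590-fold, 0.442 to 0.782), from 19.1 to 11.3 CPM, and was 13.9 CPM at TZ 5. Anpep, a peptidase that can split the product of glutathione breakdown, rose with dose by log2 0.092 per µg/mL (SE 0.026, adjusted p = 0.0275 by edgeR). In this list 0 of 15 tested genes passed the UPM term and 0 had an unadjusted p under 0.05 by edgeR. Over all genes 0.0808% rose and 0.0323% fell with that term. Such an unadjusted p was reached by 4.26% up and 3.53% down, so neither count sets the list apart.

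NRF2 targets outside glutathione metabolism had the control lowest in 16 of 18 genes, beside 20.0% of all measured genes. Their median UPM log2 fold was 0.22. In UPM against control 1 was called higher, Cat (1.65-fold, 1.45 to 1.87), beside 1.67% of all measured genes. The 2 folds below 1 were those of Tkt (0.769, 0.717 to 0.824) and Cbr1 (0.872, 0.707 to 1.07). Cat, the peroxide-splitting catalase, and Blvrb, biliverdin reductase B, passed the UPM term of the edgeR fit (log2 0.68, SE 0.14, adjusted p = 0.0272 and log2 0.56, SE 0.12, adjusted p = 0.0432). Txn1, thioredoxin, rose with dose by log2 0.107 per µg/mL (adjusted p = 0.00118 by edgeR), as did the ferritin chain Ftl1 (0.099, adjusted p = 0.00144) and the carbonyl reductase Cbr1 (0.135, adjusted p = 0.0403). Prdx1, a peroxiredoxin, fell with dose (-0.070, adjusted p = 0.0317). Against UPM at TZ 5, Cbr1 was called higher (1.51-fold, 1.24 to 1.85) and Osgin1 lower (0.619-fold, 0.434 to 0.875). The antioxidant core was in the promoter window of 7 of 20 such targets and of 14.0% of all 27025 genes. In lists where the control was seldom lowest, it was in 5 of 13 genes of breakdown and export and 4 of 10 NRF2 regulators. It was in 2 of 22 other transferases and related enzymes and 1 of 5 other detoxification enzymes. Other peroxidases and glutaredoxins had it in 0 of 12, supply genes in 0 of 9 and aryl hydrocarbon receptor genes in 1 of 6. Nqo1, a common reporter of NRF2, had 0 to 3 counts and gives no comparison.

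None of the 8 measured regulators of NRF2 was called in UPM against control, beside 1.67% of all measured genes higher and 1.41% lower. None was called in a TZ library against UPM, beside shares of 1.03% to 3.78%, so this does not set the list apart. At TZ 5 against UPM, 4 of the 8 folds were above 1 and 4 below. Bach1 stood at 0.715 (0.621 to 0.822) and Mafg at 1.29 (1.22 to 1.37), both inside the 1.5-fold limits. Of 8 measured NRF2 regulators, 0 had the control lowest, and in Nfe2l1 and Mafk it was highest. Over all measured genes these shares were 20.0% and 21.8%. Nfe2l2, which encodes NRF2, was 348 CPM in the control and 349.7 with UPM alone (1.01-fold, 0.952 to 1.06), and Keap1, its inhibitor, 151 and 144 CPM (0.957-fold, 0.880 to 1.04). Nfe2l1 had the lowest UPM fold, 0.753 (0.689 to 0.824), and Bach1, a repressor at NRF2 sites, the highest, 1.11 (0.973 to 1.26). Mafg, a small partner of these factors, rose with dose (log2 0.079 per µg/mL, SE 0.023, adjusted p = 0.0259 by edgeR). NRF2 activity, which is set largely by protein stability, was not measured.

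Few genes of the aryl hydrocarbon receptor could be compared. Ahr and its targets Cyp1a1, Cyp1b1 and Aldh3a1 were at 0 counts in all 5 libraries, which allows up to 3 counts in each. A 0 here says that no read was assigned to the symbol, and the reason was not tested. The 2 measured genes, Arnt and Tiparp, were highest in the control, as were 21.8% of all measured genes. Neither was called (0.950-fold and 0.938-fold in UPM, intervals including 1). Against UPM, Tiparp was 0.853-fold at TZ 2.5 (0.764 to 0.952) and 0.790-fold at TZ 5 (0.706 to 0.884). Arnt was 0.917-fold at TZ 5 (0.772 to 1.09). Ahrr, under the minimum, had 15 counts in UPM and 2 at TZ 5 (0.148-fold, 0.0164 to 0.636). None of these 3 passed the dose term by edgeR (adjusted p from 0.151 to 0.536).

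**Figure D4:**
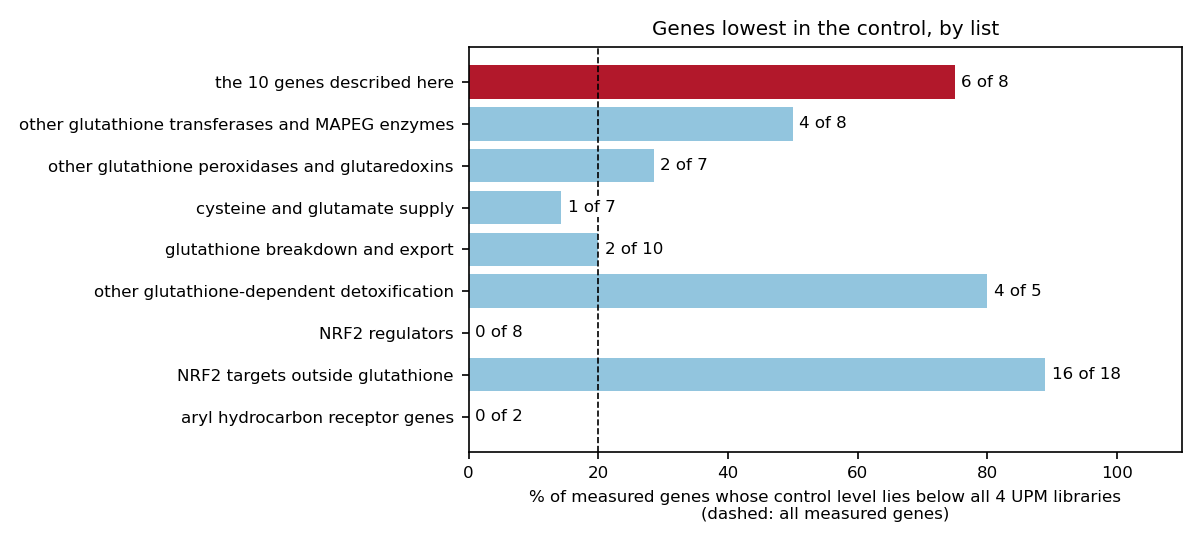
Percent of measured genes whose control level lay below all 4 UPM-exposed libraries, for the 10 genes described here (red) and the other lists (blue), with the counts beside each bar. The dashed line is the share over all 8341 measured genes, 20.0%; the 10 genes stood at 6 of 8 and NRF2 regulators at 0 of 8.

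Summed over the 10 genes, the level was 1175 CPM in the control, 1379.5 with UPM alone, 1360.3 at TZ 1.25, 1324 at TZ 2.5 and 1291 at TZ 5. Without Gpx1 the sum was 479 CPM in the control and 582, 589, 616 and 599.7 in the UPM-exposed libraries. By gene, the transferases Gsta3, Gstm1 and Mgst1 were highest at TZ 5 and lowest in the control. Gclc and Gpx1 were highest in UPM alone and lowest in TZ 5, and Gss was highest in the control. At TZ 5 Gclc was 118 CPM against 124 in the control, and Gpx1 692 against 696, with overlapping counting intervals in each pair.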

How the data were processed

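The authors deposited raw counts for each gene symbol in separate files for the 5 libraries. Per the submitters' processing notes, STAR and edgeR were used with the GRCm39 build, and versions are not given. How reads were assigned to genes, with which annotation and whether by strand, is not given either, so values of overlapping genes and near-identical paralogs are less certain. Promoters came from RefSeq and transcript ends from GENCODE M21, both on GRCm38; only the promoter coordinates of that build are printed.

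From the deposited counts, CPM was scaled by TMM factors over all 5 libraries. Folds have 95% exact conditional binomial intervals (Clopper-Pearson). In R 4.3.3, edgeR 4.0.16 with limma 3.58.1 fitted all libraries with UPM as 0 or 1 and TZ dose as a number, after filterByExpr (12381 genes). It left 2 residual and 48.7 prior degrees of freedom. The control is fitted exactly, and SE was computed from the estimate and the square root of its F statistic. The labels do not say whether libraries came from separate cultures. A DESeq2 1.42.0 fit and the other alternatives are given at the end.

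The 10 genes, the other gene lists and the cell markers were chosen with earlier results of these data known. Genes of the other lists are named where they passed a term, were called in UPM against control or in a TZ library against UPM, or were among the 2 highest or 2 lowest folds of their list in UPM against control. Those named beside a count of 5 or fewer, such as genes lowest in the control, were chosen after their values were seen. The nearest profiles are the 5 genes with the smallest Euclidean distance at a mean of at least 10 CPM.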

Additional observations from a re-analysis of the deposited data

How the results depend on the processing

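Of the 72 pairwise folds of the 9 genes under other scalings, none changed its call. UPM against control called 1 gene with a fold limit of 2, beside 0.109% of all measured genes higher and 0.0604% lower. It called 1 with a minimum of 30 CPM (0.262% and 0.598% of all). With a minimum of 1 CPM it called 4, which added Gss as lower (4.56% and 3.46% of all). TZ 5 against UPM called 0 with the limit of 2 (0.155% and 0.251% of all) or the minimum of 30 CPM (2.47% and 1.60%). The UPM term called 1 gene with total counts, with no dose term and by the DESeq2 Wald test. Leaving out a UPM-exposed library gave 1 to 3 genes: 1 without TZ 2.5, and 3, with Gstm1 added, without TZ 1.25 and without TZ 5. Gsta3 passed in all 10 alternatives (adjusted p 4.89e-09 to 0.0348) and Gclm in 6. The dose estimate of Gss reversed to -0.036 without the UPM library (up to 0.154 without TZ 5), and that of Gclm to 0.053 without TZ 5 (down to -0.055 without UPM); the cause was not tested. The control was lowest in 6 or 7 of the genes (7 with Gpx1, by total counts or without TZ 5), beside 19.6% to 26.9% of all genes. Over all genes the UPM term gave 10 higher and 4 lower calls, but 4 and 2 with total counts or DESeq2, 21 and 13 with no filter, 19 and 7 with dose as a rank, 1 and 0 with no dose term, 16 and 8 without UPM, 15 and 13 without TZ 1.25, and 35 and 45 without TZ 5. The dose term gave 365 and 309, but 115 and 94 without UPM, 215 and 155 without TZ 5, and 156 and 144 with DESeq2. No paired analysis was possible because each group is 1 library. With 1 control, no alternative could leave it out, and Gss, Gstp1 and the low end of Gsta3 are limited by depth.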
